A study of Mus musculus with 8 samples.

Results

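The genes described here are 37 markers of hepatic stellate cells, fibroblasts and extracellular matrix, out of 56691 genes in the deposited table. They were taken by symbol: 11 stellate cell markers, 11 collagen chains, 6 proteoglycans and matrix glycoproteins, 5 insulin-like growth factor (IGF)-binding proteins and 4 surface or pericyte genes of mesenchymal cells. The set was proposed after an earlier look at the same libraries, in which Igfbp7, Ccdc80, Cdh11 and Hgf had been seen to be lower in KO, so the set was chosen by measured KO against WT differences, and those differences are given here as a description. All 37 had counts, and 36 passed the filter on low counts; Tcf21 did not. RNA was sequenced from Kupffer cells, macrophages that reside in liver sinusoids, of wild-type (WT) mice and of VSIG4 KO (Vsig4-/-) mice, with 4 libraries per genotype. Both genotypes had received B16F10 melanoma cells 7 days earlier and carried liver metastases of this tumour line; livers were digested with collagenase, and living cells positive for CD45 and Tim-4 were sorted. The sources used here do not give strain, age, sex, the number of animals per library or the cells in which Vsig4 was deleted. The labels do not tie libraries to separate mice, so errors and p-values cover only the spread between libraries, which may be technical.

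Hepatic stellate cells are the vitamin A-storing pericytes of the liver sinusoid. In the quiescent state they esterify retinol and secrete growth factors, and after injury they can become the myofibroblasts that deposit fibrillar collagen. Portal fibroblasts and mesothelial cells are further sources of matrix, basement membrane collagen IV is made by endothelial and many other cells, and IGF-binding proteins are secreted carriers that hold IGFs outside cells. These cells are not known to carry CD45, on which the cells were sorted. In bulk RNA fewer cells of a type and less RNA per cell cannot be told apart.

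Vsig4 had 40604, 46735, 22498 and 25498 counts in WT 1 to 4 and 9, 6, 2 and 4 counts in KO 1 to 4, which matches the labels. Total counts ran from 15264043 to 19513844, and a count of 0 allows up to 3 counts, or 0.153 to 0.213 CPM (counts scaled to TMM-adjusted library totals), for counting error only. The 10 Kupffer cell markers summed to 17981 to 33611 CPM in WT and 7310 to 22580 CPM in KO, with no marker at 0 in any library. The summed level of 10 melanoma markers, mostly genes of pigment synthesis, was 475, 405, 5367 and 4593 CPM across WT 1 to 4 and 2378, 3394, 12081 and 6293 CPM across KO 1 to 4. Deviations of same-numbered libraries of the 2 genotypes were positively correlated, so fits with the replicate number as a block are given where they change a call. Only 4 of 8 libraries correlated best with their own number.

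Many stellate and matrix transcripts were scarce in these sorted cells. Of the 11 stellate cell markers, 6 had means under 1 FPKM (the deposited counts scaled to exon length and library total) in both genotypes and 5 were above it (Hgf, Ecm1, Colec10, Colec11 and Angptl6). Among the low ones Lrat, the enzyme that makes retinyl esters, had 0.540 ± 0.432 FPKM in WT and 0.708 ± 0.204 FPKM in KO (n = 4). The transcription factor Hand2 had 0.472 ± 0.405 FPKM in WT and 0.307 ± 0.0810 FPKM in KO. Of the 37 genes, 16 had means under 1 FPKM in both genotypes. Ecm1, a secreted matrix protein, was the most abundant member at 40.2 ± 3.32 FPKM in WT and 25.7 ± 7.48 FPKM in KO. Next were Sparc at 12.1 ± 6.25 FPKM in WT and 16.8 ± 9.61 FPKM in KO. Igfbp4 was at 10.3 ± 4.15 FPKM in WT and 15.2 ± 7.09 FPKM in KO. Igfbp7 was at 11.6 ± 3.32 FPKM in WT and 4.83 ± 1.23 FPKM in KO. The data do not show which cells the transcripts came from.

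The set did not move as one between the genotypes. Most fibrillar and type VI collagen chains, Dcn, Bgn and 4 of the 5 IGF-binding proteins had lower values in KO, markers of quiescent stellate cells were spread around a small decrease, and both type IV collagen chains, Sparc and Igfbp4 had higher values. In all, 27 of the 36 tested members had a lower and 9 a higher value in KO, where 50.4% of all 15870 tested genes had a lower and 49.6% a higher value; the median log2 fold change was -0.55 for the members and -0.0028 for all tested genes. No member passed an adjusted p of 0.05 in edgeR's quasi-likelihood test, with the lowest adjusted p at 0.492, and 0.0063% of all tested genes did so. At an unadjusted p under 0.05 in edgeR, 16 members were lower and 0 higher, against 4.56% and 4.23% of all tested genes. DESeq2 called 5 members, Igfbp7, Ccdc80, Cdh11, Hgf and Col5a2, all lower (0.184% of all genes it tested). Limma on log2(FPKM + 1) called 0. With the replicate block edgeR called 12 members, 10 lower and 2 higher, where 5.01% of tested genes were lower and 8.98% higher. Both sets of calls include Igfbp7, Ccdc80, Cdh11 and Hgf, the 4 genes whose lower KO values led to the set. Calls of these 4 genes, here and below, are therefore no independent result. The count with the block was 1, 0, 0 and 14 without pairs 1, 2, 3 and 4. Over all genes the 2220 calls became 207, 2, 1 and 2229. Each call with the block named here, members or not, rests on a fit that loses most of its calls without any of pairs 1 to 3. In 11 members all 4 KO libraries lay below all 4 WT libraries, and in 0 above; the shares over all tested genes were 2.85% and 2.71%. These shares stand beside the counts as background only, since the KO against WT contrast was in view when the set was made.

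**Figure D1:**
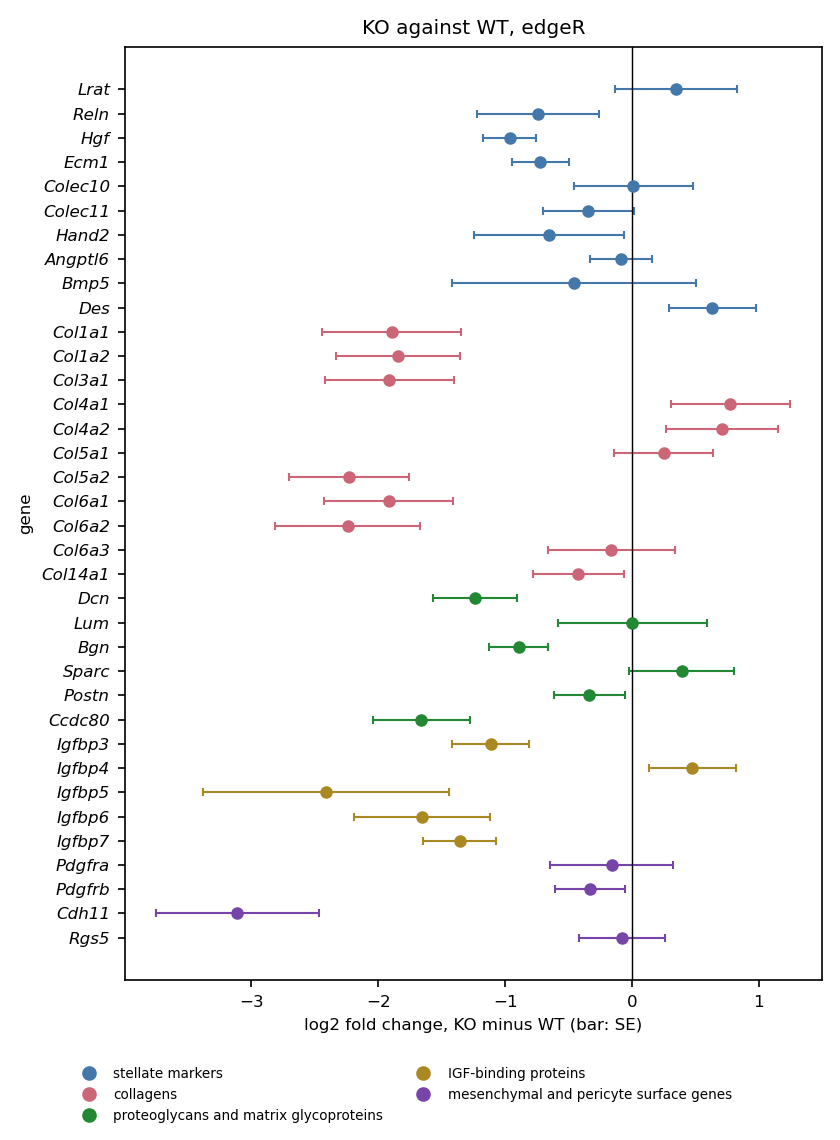
Log2 fold change of each tested member, KO minus WT (x axis, edgeR; bars are SE, 4 libraries per genotype), by gene (y axis), coloured by list. Values run from -3.11 for Cdh11 to 0.78 for Col4a1, and the collagens fall on both sides of 0.

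The 10 tested stellate cell markers had a median log2 fold change of -0.40, with 7 lower and 3 higher values. They held at least 2 patterns across libraries. Lrat, Reln, Colec10, Colec11, Hand2 and Bmp5 were highest in WT 3, at 1.43 to 4.17 times the next highest WT library, whereas 9.14% of all tested genes were highest there. Over all members 16 of 36 were highest in WT 3, 8 in KO 3 (36% of all tested genes), 6 in WT 1 (17.5%), 4 in WT 2 (16.5%) and 2 in KO 1 (7.44%). None was highest in WT 4, KO 2 or KO 4, which held 4.71%, 4.58% and 4.08% of all tested genes. Lrat had 1.56, 1.68, 6.17 and 2.18 CPM in WT 1 to 4 and 5.45, 3.26, 2.87 and 3.20 CPM in KO 1 to 4. Colec10, which with Colec11 encodes a collectin that recognises sugars and is made by stellate cells, had 7.18, 7.63, 30.1 and 10.1 CPM in WT 1 to 4 and 16.9, 15.8, 9.33 and 13.4 CPM in KO 1 to 4. Colec11 had 3.77, 4.09, 10.3 and 6.93 CPM in WT 1 to 4 and 3.61, 4.99, 4.58 and 6.60 CPM in KO 1 to 4. For these genes the genotypes overlapped: WT 1 and WT 2 lay near or under the KO libraries and WT 3 above them. The log2 fold changes were 0.35 ± 0.48 for Lrat, 0.01 ± 0.47 for Colec10 and -0.34 ± 0.36 for Colec11 (± SE). Without WT 3 they were 1.02 for Lrat and 0.73 for Colec10, whose direction turned in 7 of 18 settings. Reln, which encodes the secreted glycoprotein reelin, had 4.12, 2.47, 13.8 and 9.62 CPM in WT 1 to 4 and 4.22, 4.33, 4.64 and 4.77 CPM in KO 1 to 4, high in WT 3 and WT 4 and level in the KO libraries (-0.74 ± 0.48). Hand2 (0.36 to 2.28 CPM) and the growth factor gene Bmp5 (0.071 to 3.21 CPM) had the same highest library, and without WT 3 their log2 fold changes were -0.029 and 1.17 in place of -0.65 and -0.46. Exons of Bmp5 share 46.7% and those of Hand2 19.6% of their bases with genes on the opposite strand in GENCODE M21, and the strand setting of the counting is not given in the sources used here, so these values are uncertain. Tcf21, a transcription factor of stellate cells, had 20 counts in both WT 3 and KO 2 (1.23 and 1.02 CPM) and 5 to 8 counts in the other libraries.

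Hgf and Ecm1 behaved differently from the other stellate markers. Hgf encodes hepatocyte growth factor, the ligand of Met, and had 34.1, 30.6, 23.1 and 24.5 CPM in WT 1 to 4 and 16.5, 14.8, 9.61 and 16.6 CPM in KO 1 to 4. Every KO library was below every WT library, and KO 3 was lowest. The log2 fold change was -0.97 ± 0.21; with the block it was -0.98 ± 0.14 (edgeR adjusted p = 0.0254). Ecm1 had 116, 97.0, 103 and 102 CPM in WT 1 to 4 and 68.6, 79.1, 35.3 and 70.1 CPM in KO 1 to 4, with the same order of the genotypes and the same lowest library (-0.72 ± 0.22, and -0.78 ± 0.19 with the block, edgeR adjusted p = 0.0369). Angptl6, an angiopoietin-like secreted factor, differed little between libraries, with 2.20, 2.07, 2.53 and 2.44 CPM in WT 1 to 4 and 2.89, 2.19, 1.71 and 1.94 CPM in KO 1 to 4 (-0.08 ± 0.24); 16.8% of its exonic bases lie under a gene of the opposite strand. Des, the intermediate filament desmin, ran from 1.12 CPM in WT 2 to 3.48 CPM in KO 3, the libraries lowest and highest in melanoma RNA.

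**Figure D2:**
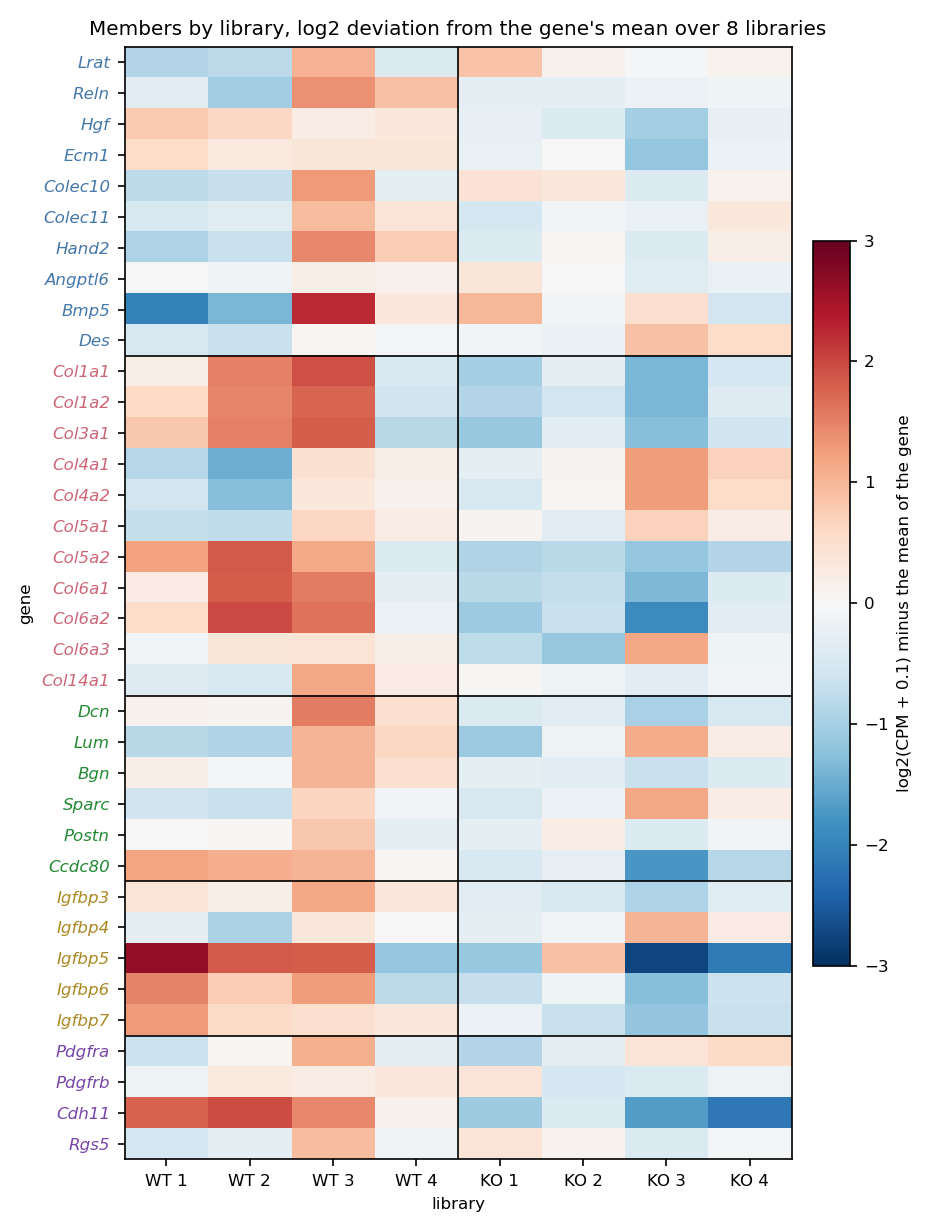
Each of the 36 tested members (rows, by list) in each library (columns): log2(CPM + 0.1) minus the mean of that gene over the 8 libraries, red above and blue below. Most stellate markers are reddest in WT 3, Col1a1, Col1a2, Col3a1 and Col6a1 are red in WT 1 to WT 3 and blue in WT 4 and all KO libraries, and type IV collagens are reddest in KO 3.

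The collagens had a median log2 fold change of -1.85 over 11 chains, but split by type. Col1a1 and Col1a2 encode the chains of type I collagen and Col3a1 that of type III, the main fibrils of scar tissue. Col3a1, the most abundant of them, had 20.7, 34.0, 41.6 and 6.61 CPM in WT 1 to 4 and 5.33, 9.43, 4.80 and 7.75 CPM in KO 1 to 4. WT 1 to WT 3 were far above all KO libraries and WT 4 was within their range. Col1a1 (-1.89 ± 0.55) and Col1a2 (-1.85 ± 0.49) had the same order of genotypes, with WT 4 at 2.05 and 3.40 CPM inside the KO ranges of 1.05 to 2.29 and 1.93 to 3.93 CPM. The log2 fold change of Col3a1 was -1.91 ± 0.51, and with the block -1.71 ± 0.46 (edgeR adjusted p = 0.0478).

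Type VI collagen, a beaded filament of the pericellular matrix, separated the genotypes for 2 of its 3 chains. Col6a1 had 2.84, 8.69, 7.10 and 1.92 CPM in WT 1 to 4 and 1.33, 1.43, 0.883 and 1.78 CPM in KO 1 to 4, and WT 4 was only just above the highest KO library. Col6a2 was 1.35 to 6.28 CPM in WT and 0.33 to 1.20 CPM in KO (-2.24 ± 0.57, and -2.11 ± 0.57 with the block, edgeR adjusted p = 0.0474), while Col6a3 was highest in KO 3 at 6.46 CPM and did not separate the genotypes (-0.16 ± 0.50, or -0.88 without KO 3). The chains of type V collagen, which nucleates fibrils, differed in the same way: Col5a2 was 0.90 to 4.65 CPM in WT and 0.50 to 0.66 CPM in KO (-2.23 ± 0.47, and -2.08 ± 0.44 with the block, edgeR adjusted p = 0.0289). Col5a1 was highest in KO 3 (0.25 ± 0.39, and -0.25 ± 0.25 with the melanoma marker level as a covariate). Col14a1, a fibril-associated collagen found in stellate cells, had 7.89, 7.46, 23.3 and 12.3 CPM in WT 1 to 4 and 10.7, 9.27, 8.28 and 9.74 CPM in KO 1 to 4. It peaked in WT 3 as the stellate markers did (-0.42 ± 0.36).

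Type IV collagen, the network of basement membranes, had higher values in KO. Col4a1 had 14.3, 9.31, 35.7 and 29.1 CPM in WT 1 to 4 and 21.003, 27.2, 61.4 and 41.6 CPM in KO 1 to 4. Col4a2 had 9.24, 5.50, 17.0 and 14.8 CPM in WT 1 to 4 and 9.61, 14.1, 32.3 and 19.9 CPM in KO 1 to 4. KO 3 was highest and WT 2 lowest for both, and the genotypes overlapped. The direction turned in 1 of 18 settings for Col4a1 and 2 of 18 for Col4a2. The log2 fold changes were 0.78 ± 0.47 and 0.71 ± 0.44. With the block Col4a1 was called (edgeR adjusted p = 0.0288) and Col4a2 was not (edgeR adjusted p = 0.0628); with the melanoma marker level as a covariate the log2 fold changes were 0.032 and -0.0059. These genes lie head to head on chromosome 8, with Col4a1 at 11198423 to 11312826 on the minus strand and Col4a2 at 11312805 to 11449287 on the plus strand (GRCm38, GENCODE M21), so the gene models overlap at their starts.

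Ratios within a library do not depend on how libraries were scaled. Scaled to exon length, Col1a2 was 0.79 to 1.26 times Col1a1 in the 8 libraries, and Col4a1 was 1.37 to 1.94 times Col4a2, while Col6a1 was 2.38 to 5.07 times Col6a2. Across types the range was wider: the ratio of Col4a1 to Col3a1 was 0.908, 0.360, 1.13 and 5.78 in the WT libraries, by number, against 5.18, 3.80, 16.8 and 7.06 for KO. WT 4 was the WT library within the KO range.

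Set side by side, markers of quiescent stellate cells and collagens both had medians below 0, of different size. The stellate median was 1.45 above the collagen median on the log2 scale. As mean deviations from each gene's own mean (log2), the stellate list was at -0.45, -0.47, 0.91 and 0.23 in the WT libraries, by number, against 0.081, -0.053, -0.24 and -0.0078 for KO. The collagens were at 0.086, 0.59, 1.16 and -0.17 in WT and -0.65, -0.45, -0.39 and -0.17 in KO. WT 3 was the highest library for both, but WT 1 and WT 2 were the lowest for the stellate list and above every KO library for the collagens. Without WT 3 the stellate median was -0.013 and the collagen median -1.44; without WT 2 the difference between the medians was 0.91.

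Among proteoglycans and matrix glycoproteins, the small leucine-rich proteoglycans decorin and biglycan had lower values in KO. Dcn, which binds collagen fibrils, had 34.7, 33.6, 91.1 and 44.4 CPM in WT 1 to 4 and 23.2, 24.9, 16.1 and 22.5 CPM in KO 1 to 4. All KO libraries were below all WT libraries, and WT 3 stood above the others; the log2 fold change was -1.23 ± 0.33, or -0.80 without WT 3. Bgn had 17.2, 14.5, 30.3 and 20.8 CPM in WT 1 to 4 and 12.3, 11.9, 9.27 and 11.1 CPM in KO 1 to 4 (-0.89 ± 0.23, and -0.84 ± 0.23 with the block, edgeR adjusted p = 0.0489). Ccdc80, a secreted protein of fibroblasts and fat tissue, had 9.10, 8.47, 8.09 and 4.11 CPM in WT 1 to 4 and 2.83, 3.31, 1.10 and 2.15 CPM in KO 1 to 4. Here too the genotypes were apart, with WT 4 the lowest WT library and KO 3 the lowest of all (-1.66 ± 0.38, and -1.67 ± 0.32 with the block, edgeR adjusted p = 0.0257). Sparc, a collagen-binding matricellular protein, had 32.3, 30.6, 77.2 and 46.1 CPM in WT 1 to 4 and 35.1, 43.5, 109 and 56.8 CPM in KO 1 to 4. KO 3 was highest and the genotypes overlapped (0.39 ± 0.41, and 0.36 ± 0.10 with the block, edgeR adjusted p = 0.0487). The direction of Sparc turned in 3 of 18 settings, among them the melanoma covariate (-0.26 ± 0.25). Lum, the keratan sulfate proteoglycan lumican, had 2.06, 1.96, 7.78 and 5.90 CPM in WT 1 to 4 and 1.72, 3.36, 8.23 and 4.45 CPM in KO 1 to 4, highest in KO 3, WT 3 and WT 4. Its log2 fold change was 0.0039 ± 0.59, and -0.89 ± 0.28 with the melanoma covariate. Postn, the matricellular protein periostin, had values from 4.36 to 10.3 CPM with the highest in WT 3 (-0.34 ± 0.28).

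**Figure D3:**
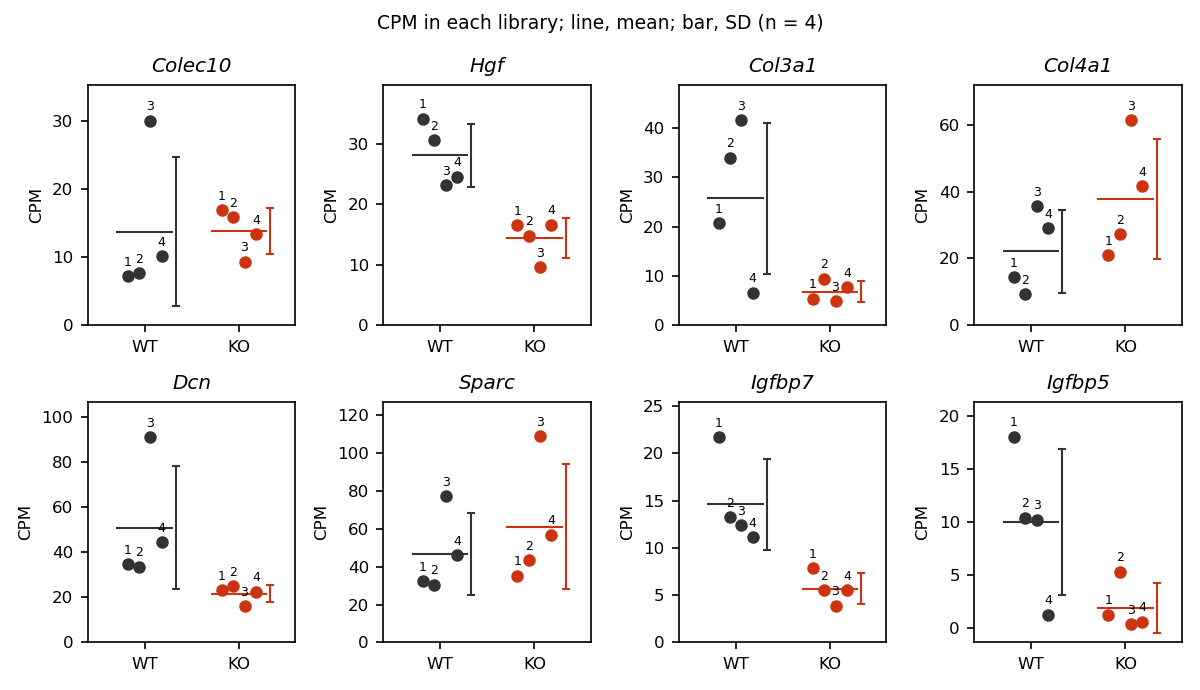
CPM (y axis) of 8 members in each WT and KO library (x axis); digits are the replicate numbers, lines the means and bars the SD (n = 4). Hgf, Dcn and Igfbp7 separate the genotypes, Col3a1 and Igfbp5 separate WT 1 to WT 3 from the rest, and Col4a1 and Sparc are highest in KO 3.

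The IGF-binding proteins split as the collagens did, with 4 lower and 1 higher. Promoters of the IGF-binding members with opposite signs are shown, with that of the collagen Col3a1, to let their sequence be read beside the values. RefSeq promoters (GRCm38.p6) were found for 28 of the 37 genes. The 250 bases before the start are printed 5′ to 3′ on the gene's strand, with capitals for matches on either strand to a TATA box (TATAAA) or a GC box (GGGCGG), which do not share bases with each other here:
Igfbp4, chr11:99040994-99041243, plus strand: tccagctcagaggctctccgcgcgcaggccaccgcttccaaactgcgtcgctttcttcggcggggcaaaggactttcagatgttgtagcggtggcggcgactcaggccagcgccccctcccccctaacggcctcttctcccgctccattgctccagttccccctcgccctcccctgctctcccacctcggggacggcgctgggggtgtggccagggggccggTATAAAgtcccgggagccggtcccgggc
Igfbp7, chr5:77408046-77408295, minus strand: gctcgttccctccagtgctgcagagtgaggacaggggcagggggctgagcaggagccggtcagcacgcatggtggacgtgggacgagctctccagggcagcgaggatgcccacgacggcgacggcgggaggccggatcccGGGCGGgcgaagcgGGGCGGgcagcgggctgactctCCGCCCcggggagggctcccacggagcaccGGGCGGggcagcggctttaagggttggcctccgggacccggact
Col3a1, chr1:45311288-45311537, plus strand: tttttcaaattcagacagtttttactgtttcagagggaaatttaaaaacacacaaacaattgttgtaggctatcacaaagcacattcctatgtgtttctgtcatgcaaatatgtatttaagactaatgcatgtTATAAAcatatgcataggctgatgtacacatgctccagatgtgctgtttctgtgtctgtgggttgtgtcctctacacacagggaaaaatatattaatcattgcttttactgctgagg
The Igfbp4 and Col3a1 windows each held 1 TATA box match and no GC box match, and the Igfbp7 window held 4 GC box matches and no TATA box match. Over all 32851 promoters in the table, 12.4% held a TATA box match and 32.7% a GC box match in the same window; over the 31 promoters of members the shares were 16.1% and 38.7%.

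Igfbp7, which binds IGFs weakly and is abundant in vessel walls, had 21.7, 13.2, 12.4 and 11.2 CPM in WT 1 to 4 and 7.83, 5.55, 3.86 and 5.55 CPM in KO 1 to 4. All KO libraries were below all WT libraries, and WT 1 was highest. The log2 fold change was -1.36 ± 0.29, and -1.35 ± 0.17 with the block (edgeR adjusted p = 0.0254). Igfbp5 had 18.1, 10.4, 10.2 and 1.22 CPM in WT 1 to 4 and 1.22, 5.30, 0.331 and 0.576 CPM in KO 1 to 4. WT 1 to WT 3 were at 10.2 CPM or more and the other 5 libraries at 5.30 CPM or less, with 6 counts in KO 3 (-2.41 ± 0.97, and -2.62 ± 0.66 with the block, edgeR adjusted p = 0.0407). Without KO 2, the highest KO library, the log2 fold change was -3.80. Igfbp6, which prefers IGF-II, also had WT 1 to WT 3 above the rest, with 2.84, 1.68, 2.41 and 0.513 CPM in WT 1 to 4 and 0.556, 0.866, 0.331 and 0.576 CPM in KO 1 to 4 (-1.66 ± 0.54). Igfbp3, the main carrier of IGFs in serum, had 2.91, 2.47, 4.94 and 2.76 CPM in WT 1 to 4 and 1.72, 1.53, 1.10 and 1.68 CPM in KO 1 to 4; the genotypes did not overlap (-1.11 ± 0.30). Igfbp4, in contrast, had 42.1, 26.5, 65.6 and 50.9 CPM in WT 1 to 4 and 42.4, 48.9, 105 and 61.5 CPM in KO 1 to 4 and was highest in KO 3 (0.48 ± 0.34). Its direction turned in 2 of 18 settings, among them the melanoma covariate (-0.061 ± 0.21). Scaled to exon length, the ratio of Igfbp4 to Igfbp7 was 0.53, 0.55, 1.45 and 1.25 in the WT libraries, by number. For KO it was 1.48, 2.41, 7.42 and 3.03. Every KO library was above every WT library, but KO 1 at 1.48 was only just above WT 3 at 1.45. Igfbp7 was among the genes first seen to be lower in KO, and Igfbp4 was set beside it for its opposite sign. This order is therefore a description only.

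Of the surface and pericyte genes, Cdh11, Pdgfra and Pdgfrb had means under 1 FPKM in both genotypes. Rgs5 was higher, at 3.24 ± 1.83 FPKM in WT and 3.185 ± 0.641 FPKM in KO. Cdh11, the cadherin of fibroblasts, had 31, 45, 28 and 10 counts in WT 1 to 4 and 4, 8, 2 and 1 counts in KO 1 to 4, and its fitted log2 fold change of -3.11 ± 0.64 rests on 1 to 8 counts per KO library and was -3.73 without KO 2 (-3.18 ± 0.43 with the block, edgeR adjusted p = 0.0254). Rgs5, a pericyte regulator of G-protein signalling, had 9.52, 11.2, 26.3 and 12.7 CPM in WT 1 to 4 and 18.2, 14.9, 10.2 and 13.3 CPM in KO 1 to 4, with WT 3 highest and the genotypes overlapping (-0.08 ± 0.34). The PDGF receptors, which drive growth and migration of activated stellate cells, were under 4 CPM in every library: Pdgfra ran from 0.89 to 3.70 CPM (-0.16 ± 0.48) and Pdgfrb from 1.83 to 3.50 CPM (-0.33 ± 0.27).

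How members varied with the RNA of other cells was tested as a slope on the mean log2 CPM of a marker list, with genotype in the model, which does not use the difference between genotypes. Against the melanoma list, 9 of the 36 tested members had a positive and 1 a negative slope in edgeR (adjusted p under 0.05 over all genes). Of all tested genes 21% had a positive and 14.5% a negative slope. The positive count was near the share over all genes, so it is not read as a result about the set. Col4a1 had the steepest fit relative to its error, 0.48 ± 0.0482 log2 units per log2 unit of the list (edgeR adjusted p = 7.99e-05). Lum had 0.57 ± 0.0847 (edgeR adjusted p = 0.000962), Col4a2 0.42 ± 0.0699 (edgeR adjusted p = 0.00199) and Sparc 0.36 ± 0.0716 (edgeR adjusted p = 0.00475). Reln, Igfbp4, Col5a1, Colec11 and Hand2 were the other positive members, and Hgf was the negative one at -0.15 ± 0.0505 (edgeR adjusted p = 0.0460). Col4a1, Col4a2, Col5a1, Igfbp4, Lum, Reln and Sparc were called in all 13 settings run without the block, and with the block, which leaves 2 residual degrees of freedom, 0 members were called. Col1a1, Col1a2 and Col3a1 had slopes of 0.0047, -0.045 and -0.065. Without WT 3, Col1a2, Col3a1, Col5a2, Ccdc80 and Igfbp5 were called with negative slopes. All levels are shares of 1 library, so more RNA of 1 kind lowers the share of the rest.

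**Figure D4:**
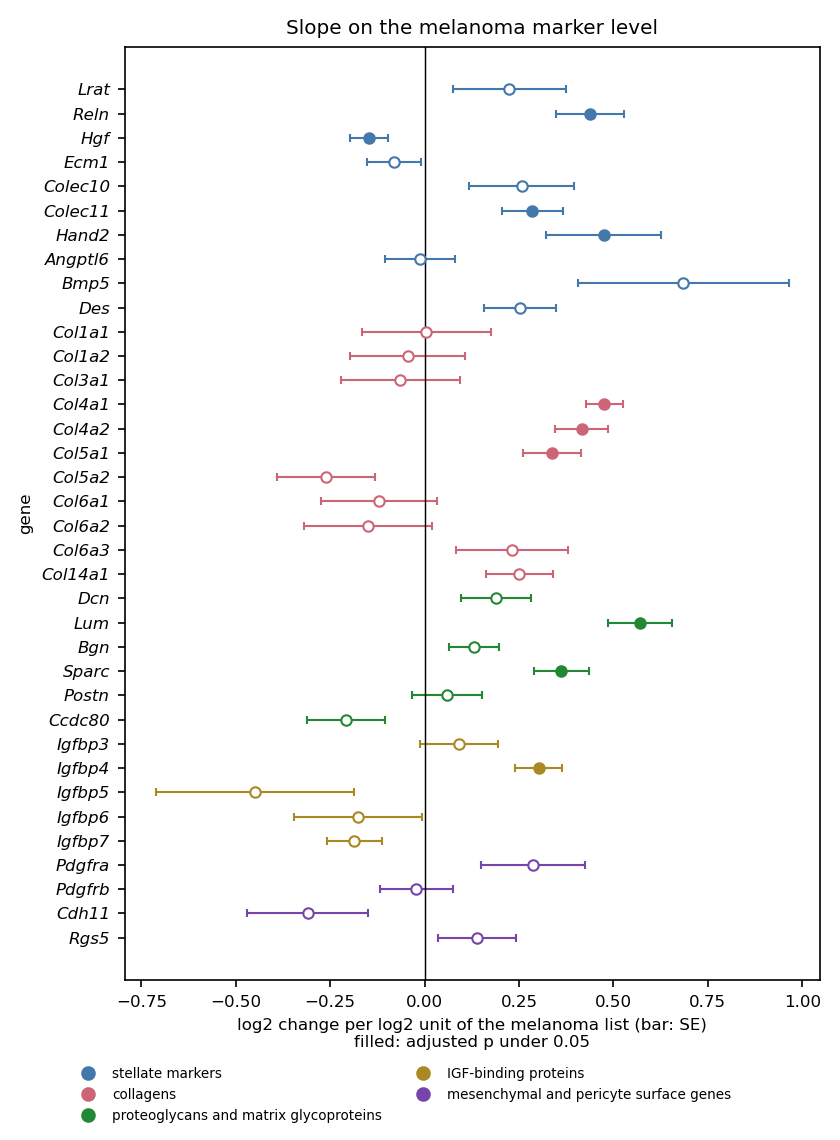
Slope of each tested member on the mean log2 CPM of the melanoma markers, with genotype in the model (x axis; bars are SE, 8 libraries), by gene (y axis). Filled points passed an adjusted p of 0.05 in edgeR; Lum, Col4a1 and Hand2 are the highest filled points and Hgf is the filled point below 0.

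Against the endothelial list, 2 of the 36 tested members had a positive and 6 a negative slope, where 14.5% and 19.6% of all tested genes did. Neither count was above the share over all genes. Igfbp7 (0.61 ± 0.144, edgeR adjusted p = 0.0141) and Igfbp5 (1.89 ± 0.649, edgeR adjusted p = 0.0494) were the positive members, and Col4a1, Col4a2, Col5a1, Lum, Sparc and Igfbp4 the negative ones. This count was 1, 4 and 2 without KO 1, KO 2 and KO 3. All 10 melanoma markers had negative and 8 of 10 Kupffer markers positive slopes on the endothelial list, so the endothelial and melanoma slopes are not separate axes in these libraries. Against the hepatocyte list 0 members were called in edgeR (0.542% of all tested genes had a positive slope) and 7 in DESeq2.

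Markers of other matrix-making cells gave values beside these results. The 7 mesothelial markers, genes of the cells that line the liver surface, had summed levels of 15.3, 10.4, 11.4 and 2.69 CPM across WT 1 to 4 and 1.94, 2.96, 3.20 and 2.30 CPM across KO 1 to 4 (exact permutation p = 0.0857, 2-sided, adjusted p = 0.386 over 9 lists). In this sum WT 1 to WT 3 were above the other libraries, as for Igfbp5, Igfbp6, Col1a1, Col1a2 and Col3a1. Of these markers 2 of 7 passed the filter on low counts and 3 were at 0 in some library. The markers did not all share that order: Krt19 had 1.28, 0.673, 2.72 and 0.321 CPM in WT 1 to 4 and 0.167, 0.306, 0.0552 and 0.210 CPM in KO 1 to 4, with WT 1 to WT 3 above the rest. Gpm6a had 3.98, 2.97, 2.35 and 1.41 CPM in WT 1 to 4 and 0.611, 0.866, 2.43 and 1.57 CPM in KO 1 to 4, with KO 3 above WT 3. Much of the sum in WT 1 to WT 3 came from mesothelial markers whose values are not given here. The part of mesothelial cells in the lower values of the members named above was not tested. Portal fibroblast markers summed to 24.2 to 59.7 CPM in WT and 16.2 to 45.6 CPM in KO (exact permutation adjusted p = 0.418), with 4 of 10 at 0 in some library; Cd34 fell with the block (-1.04 ± 0.21, edgeR adjusted p = 0.0275). Smooth muscle and activated stellate cell markers summed to 5.19 to 6.61 CPM in WT and 5.28 to 9.61 CPM in KO (exact permutation adjusted p = 0.418). Tagln, an actin-binding protein of myofibroblasts, had 1.45 ± 0.262 in WT against 1.16 ± 0.278 CPM in KO. Timp1, the collagenase inhibitor, had 1.68 ± 0.482 in WT against 3.49 ± 1.89 CPM in KO. Cholangiocyte markers summed to 19.4 to 47.9 CPM in WT and 20.3 to 53.2 CPM in KO (exact permutation adjusted p = 0.657). Most of this sum was 1 gene, Spp1, with 26.9 ± 9.77 in WT against 32.0 ± 13.3 CPM in KO. Epcam had 1.49 ± 0.444 in WT against 1.07 ± 0.178 CPM in KO.

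Endothelial markers summed to 566 to 944 CPM in WT and 344 to 702 CPM in KO (exact permutation adjusted p = 0.411), and Kdr, the VEGF receptor of endothelial cells, had 19.5 ± 14.1 in WT against 8.38 ± 4.98 CPM in KO. Hepatocyte markers summed to 1612 to 3002 CPM in WT, highest in WT 3 as was the stellate list, and 1060 to 1555 CPM in KO (exact permutation p = 0.0286, the smallest possible with 4 against 4, adjusted p = 0.257). Much of this sum was Trf, with 1762, 1300, 1083 and 986 CPM in WT 1 to 4 and 974, 884, 529 and 806 CPM in KO 1 to 4. Its melanoma slope was negative (-0.19 ± 0.058), where 9 of the 10 hepatocyte markers had positive slopes. Alb had 403, 302, 1345 and 404 CPM in WT 1 to 4 and 168, 109, 448 and 445 CPM in KO 1 to 4, and overlapped between genotypes. The sum without Trf was not tested. The other sums had adjusted p of 0.411 for the melanoma and Kupffer lists and 0.418 for the leukocyte list. Their part in the members' values was not tested.

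Stellate cell genes outside the set were most often highest in WT 3, but not all were. Of 18 tested members of that list, which includes the globin Cygb, the antioxidant enzyme Sod3 and the chemokine Cxcl12, 9 were highest in WT 3 (9.14% of all tested genes). Of the rest, 3 were highest in KO 3, 2 each in WT 1 and WT 4, and 1 each in KO 1 and KO 4. None of the 18 passed in edgeR between genotypes and 1 did with the block. This was Nes, the intermediate filament nestin, with 9.11 ± 5.55 in WT against 21.035 ± 7.45 CPM in KO (1.34 ± 0.27 on the log2 scale with the block, edgeR adjusted p = 0.0273). Nes was highest in KO 3 and lowest in WT 2, and its melanoma slope was 0.47 ± 0.0484 (edgeR adjusted p = 8.70e-05). Without the block its log2 fold change was 1.21 ± 0.47, and 0.56 ± 0.15 with the melanoma covariate. The list's median was -0.23.

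Of 15 tested collagen processing enzymes 10 had higher values in KO (median log2 fold change 0.30), as had 14 of 20 basement membrane and other matrix proteins (median 0.30). With the melanoma covariate the medians were 0.13 and -0.070. Without the block 0 passed in edgeR. With it 4 of the 15 processing enzymes rose, where 8.98% of all tested genes did, among them Serpinh1, the collagen chaperone HSP47 (136 ± 118 in WT against 355 ± 209.6 CPM in KO; 1.80 ± 0.34 on the log2 scale with the block, edgeR adjusted p = 0.0256). The others named were the prolyl hydroxylase P3h1 (10.6 ± 3.96 in WT against 18.1 ± 5.55 CPM in KO) and the lysyl hydroxylase Plod2 (50.3 ± 46.4 in WT against 113 ± 80.6 CPM in KO). Of the 20 other matrix proteins 4 rose and 1 fell with the block (8.98% and 5.01% of all tested genes). The laminin gene Lamc1 had 24.2 ± 17.2 in WT against 51.2 ± 30.7 CPM in KO, Fbln1 21.4 ± 19.6 in WT against 52.1 ± 37.1 CPM in KO and Fbln5 19.8 ± 19.1 in WT against 43.3 ± 32.6 CPM in KO. All of these named genes had called positive melanoma slopes: Serpinh1 0.78 ± 0.0374, P3h1 0.29 ± 0.0442, Plod2 0.90 ± 0.0312, Lamc1 0.63 ± 0.0463, Fbln1 0.89 ± 0.0397 and Fbln5 0.98 ± 0.0606. So did 7 of the 15 and 12 of the 20 genes of these lists and 21% of all tested genes. With the melanoma covariate and no block, log2 fold changes were 0.46 for Serpinh1, 0.30 for P3h1 and 0.071 for Plod2. They were 0.16 for Lamc1, 0.20 for Fbln1 and -0.081 for Fbln5.

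The ligands and receptors around the members were tested in the same way, and none passed without the block. With it 8.98% of all tested genes rose and 5.01% fell. Counts of 1 or 2 in these short lists are not read as results about the lists. Pdgfc, a ligand of Pdgfra, had 80.9 ± 31.8 in WT against 40.7 ± 17.5 CPM in KO and fell with the block (-1.03 ± 0.13, edgeR adjusted p = 0.0254), the only one of 4 PDGF genes to do so. Igf1, which the IGF-binding proteins carry, had 501 ± 157 in WT against 306 ± 114 CPM in KO and fell with the block (-0.75 ± 0.15, edgeR adjusted p = 0.0284), while the clearance receptor Igf2r rose (0.47 ± 0.10, edgeR adjusted p = 0.0286); the other 6 tested genes of that list did not pass. Met, the receptor of Hgf, had 81.3 ± 74.8 in WT against 158 ± 125 CPM in KO and rose with the block (1.27 ± 0.26, edgeR adjusted p = 0.0278), the only one of 7 genes of its list; its melanoma slope was 0.93 ± 0.0487. In the TGF-beta list, whose ligands drive fibrosis, 2 of 18 genes rose and 2 fell with the block, including the receptor Tgfbr2 (154 ± 52.1 in WT against 112 ± 39.6 CPM in KO, -0.48 ± 0.12, edgeR adjusted p = 0.0425) and its feedback repressor Skil (246 ± 72.7 in WT against 163 ± 45.2 CPM in KO). Of 11 retinoid genes, Cyp26b1, which degrades retinoic acid, rose (0.70 ± 0.17, edgeR adjusted p = 0.0388) and the nuclear receptor Rxra fell (-0.53 ± 0.14, edgeR adjusted p = 0.0439). Pdgfc, Igf1, Tgfbr2, Skil and Rxra had called negative melanoma slopes (-0.34, -0.28, -0.28, -0.24 and -0.27), as had 14.5% of all tested genes. With the melanoma covariate and no block, the log2 fold changes were -0.42 ± 0.23 for Pdgfc and -0.25 ± 0.22 for Igf1. They were 0.016 ± 0.20 for Tgfbr2, -0.17 ± 0.15 for Skil and -0.045 ± 0.20 for Rxra. Met was at -0.29 ± 0.16, Igf2r at 0.34 ± 0.13 and Cyp26b1 at 0.29 ± 0.23. Causes were not tested.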

How the data were processed

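The deposited table holds raw counts per gene and the authors' FPKM values for 8 libraries; HTSeq 0.6.1 and the build mm10 are named per the submitters' processing notes. The sources used here do not give aligner, annotation or strand setting. The deposited FPKM values equalled counts scaled to exon length and library total within 0.015 for 100% of genes. Of 52073 genes shared with GENCODE M21 (GRCm38), 1435 had the deposited position, so positions here are from GENCODE or RefSeq. Columns lettered C were read as WT and K as KO, with the digit as replicate number.

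Counts were filtered with filterByExpr (15870 genes), scaled by TMM and tested in edgeR 4.0.16 (R 4.3.3; quasi-likelihood F test, 2-sided, Benjamini-Hochberg over all tested genes, threshold 0.05). Each SE is the unshrunken log2 fold change over the root of F. List deviations are of log2 CPM (prior count 2). DESeq2 1.42.0 and limma 3.58.1 were alternatives, beside other scaling, filters, a melanoma covariate, the replicate block and leaving out libraries. Marker sums were compared by exact permutation over 70 splits. Scripts were tested on simulated data.

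Deviations from the genotype means correlated at 0.561, 0.544, 0.660 and 0.290 between same-numbered libraries, each over 0.1. The numbers were treated as pairs only in the fits with the replicate block, and the main fit used genotype alone. Of the 8 libraries 4 correlated best with their own number, and number 3 alone was a best match in both directions. This comes from the data, not the labels, and numbers 3 and 4 held more melanoma RNA in both genotypes. Replicates differed by more than sampling noise (chi-square per degree of freedom at least 10.02). The members, lists and alternatives were chosen with earlier results of these data known. Values in every library are given for the members of at least 1 FPKM in either genotype and for the 4 genes first seen to be lower. Outside the set, genes past the threshold with or without the block were named, up to 3 per list, or else the 2 with the highest FPKM; some are not given.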

Additional observations from a re-analysis of the deposited data

Results flagged for a closer look

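In 3 of the 90 groups of 4 values checked, 1 library lay far from the other 3. Chance alone gives about 1 in 20, so the count is no higher than chance gives and the values are listed only as a description. Lrat was at 6.17 CPM in WT 3, where the other WT libraries were at 1.56 to 2.18 CPM, and at 5.45 CPM in KO 1, where the other KO libraries were at 2.87 to 3.26 CPM. Colec10 was at 30.1 CPM in WT 3, against 7.18 to 10.1 CPM in the other WT libraries. No cause was tested.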

How the results depend on the processing

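Of the 36 tested members, 21 had the same sign of the log2 fold change under all 17 or 18 settings that gave them a value (20 lower and 1 higher in KO) and 15 had both signs. Without the block and outside DESeq2 no setting called a member between genotypes. DESeq2 called 5 members and 36 genes, and the replicate block 12 members and 2220 genes. Both sets of members include the 4 genes first seen to be lower. Without pairs 1, 2, 3 and 4 the block called 207, 2, 1 and 2229 genes. All genes called numbered 2 with no filter on low counts, and 1 to 2 with single libraries left out. The collagen median was -1.14 with the stricter filter (1 CPM in 4 libraries), -0.26 for limma on log2(FPKM + 1) and -1.13 on log2(FPKM + 0.1), pseudocounts that shrink the changes of low genes. The IGF-binding protein median was -0.70 on log2(FPKM + 1). The stellate median minus the collagen median was 0.92 with the stricter filter, 0.18 on log2(FPKM + 1) and 0.91 to 1.72 with single libraries left out. The proteoglycan median was -0.98 with the melanoma covariate and -1.11 without WT 1, WT 2 and KO 3; the cause was not tested. With the block 0 members were called for the melanoma, endothelial and hepatocyte slopes. With single libraries left out 7 to 14 members were called for the melanoma slope, 1 to 8 for the endothelial slope and 0 to 2 for the hepatocyte slope, for which DESeq2 called 7. The cholangiocyte sum changed direction without WT 1 (-0.062) and without KO 1 (-0.033), in a range of -0.062 to 0.42 with single libraries left out. Depth limits Hand2, Bmp5, Tcf21, Col5a2, Col6a2, Igfbp5, Igfbp6 and Cdh11, which had fewer than 10 counts in some libraries.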
